A study of Saccharomyces cerevisiae with 18 samples.

Results

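Neocarzinostatin, an enediyne antibiotic, was compared with its solvent in 6 of the 18 arrays of a study of budding yeast: 3 arrays of cells given neocarzinostatin and 3 arrays of cells given methanol vehicle, chosen by the sample titles. The treated cells were mid-log cultures of the haploid strain DBY747, which carries *his3*, *leu2*, *ura3* and *trp1* mutations, and received 4 nM neocarzinostatin for 15 min, a dose set to kill 20 to 25% of cells. The drug was the chromophore extracted into methanol, without its carrier protein, and the methanol vehicle cells of the same strain received the solvent alone. The other arrays hold 3 replicates each of calicheamicin at 1 nM, esperamicin A1 at 3 nM, γ-radiation and mock irradiation, and are used here for the estimate of spread and for values set beside those of neocarzinostatin. Each array measured the RNA of a whole culture, so fewer cells with a transcript and less transcript per cell cannot be told apart.

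Enediynes are natural products that rearrange, once activated by a thiol, into a diradical. The diradical attacks the sugars of the DNA backbone and so breaks one strand or both, with little damage to the bases. In yeast the kinases Mec1 and Tel1 sense such lesions and act through Rad53 and Dun1 on cell cycle arrest, repair and nucleotide supply, with ribonucleotide reductase among the best known transcriptional targets.

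The intensities are robust multi-array average (RMA) values on a linear scale, and differences are given as log2 fold changes, neocarzinostatin minus methanol vehicle, from 1 limma model of all 18 arrays. The threshold for a call was a change of at least 1.5-fold together with a p of at most 0.10 after Benjamini-Hochberg adjustment over 5656 genes. One of the control arrays stood apart. The signal at the 5' end of the actin transcript relative to the 3' end, as a log2 difference of control probe sets, was -0.83, -0.95 and -0.94 in the neocarzinostatin arrays, against -3.59 in methanol vehicle replicate 1, -0.97 in replicate 2 and -0.77 in replicate 3. Results are therefore given with all 3 control arrays and without methanol vehicle replicate 1. The mean correlation of an array with the rest of its group was 0.983 to 0.987 for neocarzinostatin and 0.958 to 0.975 for methanol vehicle. The study's methods give the strain as mating type a. The a-factor genes *MFA1* and *MFA2* had intensities of 878 to 1630 in the neocarzinostatin arrays and 937 to 1778 in the methanol vehicle arrays, and the α-factor gene *MF(ALPHA)1* had 15.9 to 19.3 in the neocarzinostatin arrays and 17.2 to 19.3 in the methanol vehicle arrays, near the array medians, of which the highest was 16.8. Not every mating-type gene was so placed relative to the medians: the α-agglutinin gene *SAG1* was at 49.2 to 61.7 with neocarzinostatin and at 48.2 to 59.2 with methanol vehicle, and the a-factor exporter gene *STE6* at 10.6 to 17.9 with neocarzinostatin and at 5.59 to 10.1 with methanol vehicle.

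The main fit, which has no term for replicate number, called no gene. Limma called 0 of 5656 genes (0%), with a smallest adjusted p of 0.266, and 0 without methanol vehicle replicate 1, with a smallest adjusted p of 0.458. At an unadjusted p under 0.05, 318 genes were higher (5.62%) and 146 were lower (2.58%) with neocarzinostatin, where 282.8 in both directions would be expected if no gene changed. Without methanol vehicle replicate 1 these counts were 233 (4.12%) and 172 (3.04%). The split depended on the scaling, with 192 higher and 253 lower after each array was centred on its median and 228 higher and 231 lower after cyclic loess. Of the 318 higher genes 122 were past that p in the same direction in both fits, and of the 146 lower genes 70. All 3 neocarzinostatin arrays lay above all 3 methanol vehicle arrays in 418 genes (7.39%) and below them in 230 (4.07%). Methanol vehicle replicate 1 was the lowest array in 252 of the 418, and the highest in 118 of the 230. With 3 arrays against 3, an exact permutation test cannot give a two-sided p below 0.10, and the standard errors of the log2 fold changes had a median of 0.20. Complete separation of the arrays is the outcome that reaches that p. If no gene changed, a share of about 0.10 of genes would thus separate, in either direction, so lack of overlap alone does not set a gene apart. The values that follow are therefore measured differences that did not pass the main fit. A limma fit that weighted the arrays called 9 genes, among them *CIP1*, *DXO1*, *TDA6*, *TLG1*, *GPI17*, *ARO4* and *RPL27B*. Calls by other alternative fits are given with the gene or in the closing counts.

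Among the genes whose arrays did not overlap, the cyclin-dependent kinase inhibitor gene *CIP1* had the largest positive difference. Its intensities were 364, 311 and 313 in the neocarzinostatin arrays and 75.9, 134 and 158 in the methanol vehicle arrays. The lowest treated array was thus about 2 times the highest control array, and the control arrays differed among themselves by a similar factor. The log2 fold change was 1.49 (standard error 0.29, 95% interval 0.86 to 2.11, adjusted p = 0.266 from limma), and 1.17 without methanol vehicle replicate 1 (adjusted p = 0.537). A fit with a block for each replicate number, set separately in the enediyne and methanol vehicle arrays and in the irradiation arrays, called 3 genes (0.053%): *CIP1*, *DXO1* and *HAP1*. In it *CIP1* passed with both sets of control arrays (adjusted p = 0.0951, and 0.0273 without methanol vehicle replicate 1). Without that array the blocked fit called 6 genes (0.106%): *CIP1*, *DXO1*, *HSP30*, *TDA6*, *SAM2* and *BSC1*. The mock irradiation arrays had 143, 80.6 and 72.4, so the treated arrays lay above those controls too, as in 140 genes in all (2.48%). *CIP1* was at 309, 185 and 187 after calicheamicin, at 214, 159 and 157 after esperamicin A1 and at 131, 81.7 and 87.6 after γ-radiation. In each of these 3 groups, as with neocarzinostatin, replicate 1 had the highest value. The doses differ, and the enediynes share their control arrays, so these values stand side by side without a test.

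*RNR3*, which encodes the damage-inducible large subunit of ribonucleotide reductase, was at 227, 101 and 92.9 in the neocarzinostatin arrays and at 66.2, 73.2 and 52.7 in the methanol vehicle arrays. The groups did not overlap, but replicate 1 held most of the difference. The log2 fold change was 1.02 (standard error 0.28, adjusted p = 0.496 from limma), 1.05 without methanol vehicle replicate 1 and 0.61 without neocarzinostatin replicate 1. After γ-radiation the same gene had 794, 939 and 970, against 70.0, 56.2 and 95.9 after mock irradiation; its log2 fold change there was 3.64 (adjusted p = 1.64e-06). The neocarzinostatin effect minus the γ-radiation effect was -2.62 on the log2 scale (standard error 0.40), a difference that passed over all genes (adjusted p = 0.0139 from limma). *HUG1*, a small inhibitor of ribonucleotide reductase under the same checkpoint, was at 251, 126 and 140 with neocarzinostatin and at 173, 129 and 135 with methanol vehicle, so the groups overlapped and replicate 1 was again the high array in both. Its log2 fold change was 0.19, with 0.32 when methanol vehicle replicate 1 was left out and -0.12 when neocarzinostatin replicate 1 was. It was chosen after its values were seen.

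The other positive differences without overlap came from genes of mixed function. *SEC10*, an exocyst subunit, was at 13.2, 15.2 and 19.1 with neocarzinostatin and at 5.82, 12.2 and 3.49 with methanol vehicle, a log2 fold change of 1.32 that passed limma only when methanol vehicle replicate 2 was left out (adjusted p = 0.0520). *TDA6* had 12.6, 21.5 and 24.3 with neocarzinostatin and 11.7, 6.49 and 7.95 with methanol vehicle. Its log2 fold change was 1.15 (adjusted p = 0.524 from limma, and 0.199 with the block), and 1.38 without methanol vehicle replicate 1, where it passed limma only with the block (adjusted p = 0.0388). The phospholipase B gene *PLB3* followed at 1.03. *PLB3* had 54.9, 94.6 and 95.8 in the neocarzinostatin arrays, against 28.3, 42.0 and 49.5 in the methanol vehicle arrays. Next were *YLR297W* (0.98), *YDR222W* (0.83), the multistress gene *DDR2* (0.82), the cullin neddylation gene *DCN1* (0.82), *YOL014W* (0.77), the cytochrome c oxidase subunit gene *COX5A* (0.77) and *STE6* (0.75, and 0.49 without methanol vehicle replicate 1). *DDR2* had 689, 747 and 674 with neocarzinostatin and 242, 407 and 636 with methanol vehicle, and its log2 fold change was 0.47 without methanol vehicle replicate 1. That array was the lowest control for 6 of these 12 genes, and the log2 fold changes without it ran between 0.45 for *COX5A* and 1.38 for *TDA6*. Of the 12, *CIP1* alone also lay above every mock irradiation array.

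The negative differences without overlap were led by *DXO1*, which encodes an exonuclease that removes incomplete caps from messenger RNA. Its intensities were 7.30, 5.66 and 8.11 in the neocarzinostatin arrays and 15.2, 14.9 and 13.8 in the methanol vehicle arrays. The control arrays agreed closely, but all 6 values lie below the array medians, where probe sets carry little signal, and the mock irradiation arrays, at 12.3, 9.17 and 6.88, overlapped the treated ones. The log2 fold change was -1.08 (standard error 0.21, 95% interval -1.51 to -0.64, adjusted p = 0.266 from limma), and -1.05 without methanol vehicle replicate 1. With the block on replicate number it passed with both sets of control arrays (adjusted p = 0.0188, and 0.0295 without methanol vehicle replicate 1).

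The other 11 negative differences came from genes of mixed function. Among them were *KEI1* of inositol phosphorylceramide synthase (-0.84), the t-SNARE gene *TLG1* (-0.83), *GPI17* of GPI transamidase (-0.77) and the ARF GTPase activator gene *GLO3* (-0.69). *GPI17* had 34.2, 27.9 and 27.2 with neocarzinostatin and 52.5, 50.7 and 48.5 with methanol vehicle, 2 narrow groups that did not touch. *PSF1* of the GINS replication complex was at 11.6, 8.47 and 9.82 in the neocarzinostatin arrays and at 19.4, 14.6 and 17.98 in the methanol vehicle arrays, a log2 fold change of -0.80. *DUT1*, the dUTPase that keeps uracil out of DNA, was at 154, 149 and 121 with neocarzinostatin and at 272, 185 and 232 with methanol vehicle (-0.69). It was the 1 gene of these 12 that also lay below every mock irradiation array, as did 70 genes in all (1.24%). *RRP1* (-0.72) and *NUG1* (-0.67) act in assembly and export of the large ribosomal subunit, *PRP28* (-0.74) in splicing and *TIM9* (-0.80) in mitochondrial protein import. The isomaltase gene *IMA1* (-0.78) owed its place to 1 array: it was at 9.66, 9.67 and 9.69 with neocarzinostatin and at 42.9, 9.80 and 10.8 with methanol vehicle, and its log2 fold change was -0.09 without methanol vehicle replicate 1. For the other 11 genes the values without that array ran between -1.05 and -0.55.

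**Figure D1:**
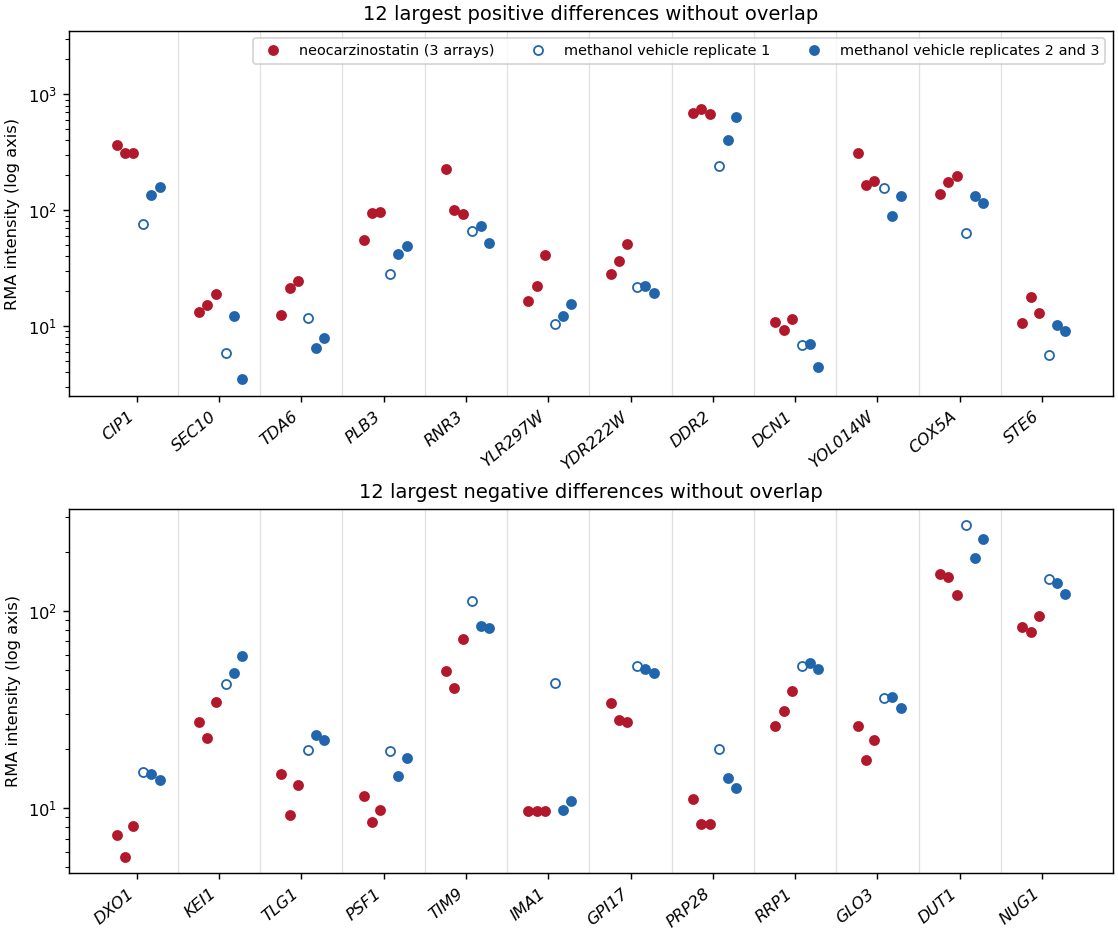
RMA intensity on a log axis of the 12 genes with the largest positive (top) and the 12 with the largest negative (bottom) log2 fold change among genes whose 3 neocarzinostatin arrays did not overlap the 3 methanol vehicle arrays, 1 point per array. Methanol vehicle replicate 1, drawn open, is the lowest control for 6 of the 12 genes in the top panel and alone sets *IMA1* in the bottom panel.

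The local pooled error test, which the study's methods name and which borrows its error from genes of like intensity, called 8 genes (0.141%) at the same thresholds: *HAP1*, *HSP30*, *NOP56*, *TDA6*, *SEC10*, *KIN2*, *GCD7* and *RDN5-1*. The test was rebuilt here and run without the study's filter on detection calls, and the study's own count for this comparison was larger. Without methanol vehicle replicate 1 the rebuilt test called 21 (0.371%). Several of these rest on arrays that disagree. *HAP1*, a heme-responsive transcription factor, was at 64.8, 24.3 and 29.4 with neocarzinostatin and at 128, 59.3 and 108 with methanol vehicle, so neocarzinostatin replicate 1 lay above methanol vehicle replicate 2. Within each replicate number the treated array was the lower one, by -0.98, -1.29 and -1.87 on the log2 scale. The log2 fold change of -1.38 passed the local pooled error test (adjusted p = 0.000281) and the limma fit with the block on replicate number (adjusted p = 0.0951), but not that fit without methanol vehicle replicate 1 (adjusted p = 0.123). These values come from 1 of 3 probe sets for *HAP1*. A second gave -0.99 and the third 0.49, so the probe sets disagree in direction, and the pair that were lower belong to a class that also matches related sequences.

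*HSP30*, a plasma membrane protein induced by heat and by entry into stationary phase, was at 135, 30.2 and 78.2 in the neocarzinostatin arrays and at 158, 8.49 and 15.4 in the methanol vehicle arrays. Replicate 1 was the highest array of both groups. The log2 fold change was 1.32 (standard error 0.95), and 2.58 (standard error 0.84) without methanol vehicle replicate 1, where it passed limma only with the block on replicate number (adjusted p = 0.00538). Against the methanol vehicle and mock irradiation arrays together it was -0.16, since the mock irradiation arrays had 341, 324 and 87.8. *NOP56*, a core protein of box C/D small nucleolar ribonucleoproteins, was at 48.5, 99.3 and 92.1 with neocarzinostatin and at 24.4, 97.9 and 21.4 with methanol vehicle, where replicate 2 matched the treated arrays and the others did not. The translation initiation factor gene *GCD7* and the kinase gene *KIN2* had the same split among the controls. *GCD7* was at 36.0, 59.2 and 57.3 with neocarzinostatin and at 21.98, 54.2 and 20.7 with methanol vehicle, and *KIN2* at 24.2, 42.5 and 36.5 with neocarzinostatin and at 13.6, 33.7 and 11.4 with methanol vehicle. *KIN2* has 6 probe sets, and the others gave log2 fold changes of -0.63 to 0.12, against 0.95 for the one used. The 5S ribosomal RNA gene *RDN5-1* had 10.1, 21.6 and 34.8 with neocarzinostatin and 98.9, 58.0 and 10.7 with methanol vehicle, so the groups overlapped and the control arrays differed widely among themselves. Its log2 fold change was -1.01, and -0.34 without methanol vehicle replicate 1.

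**Figure D2:**
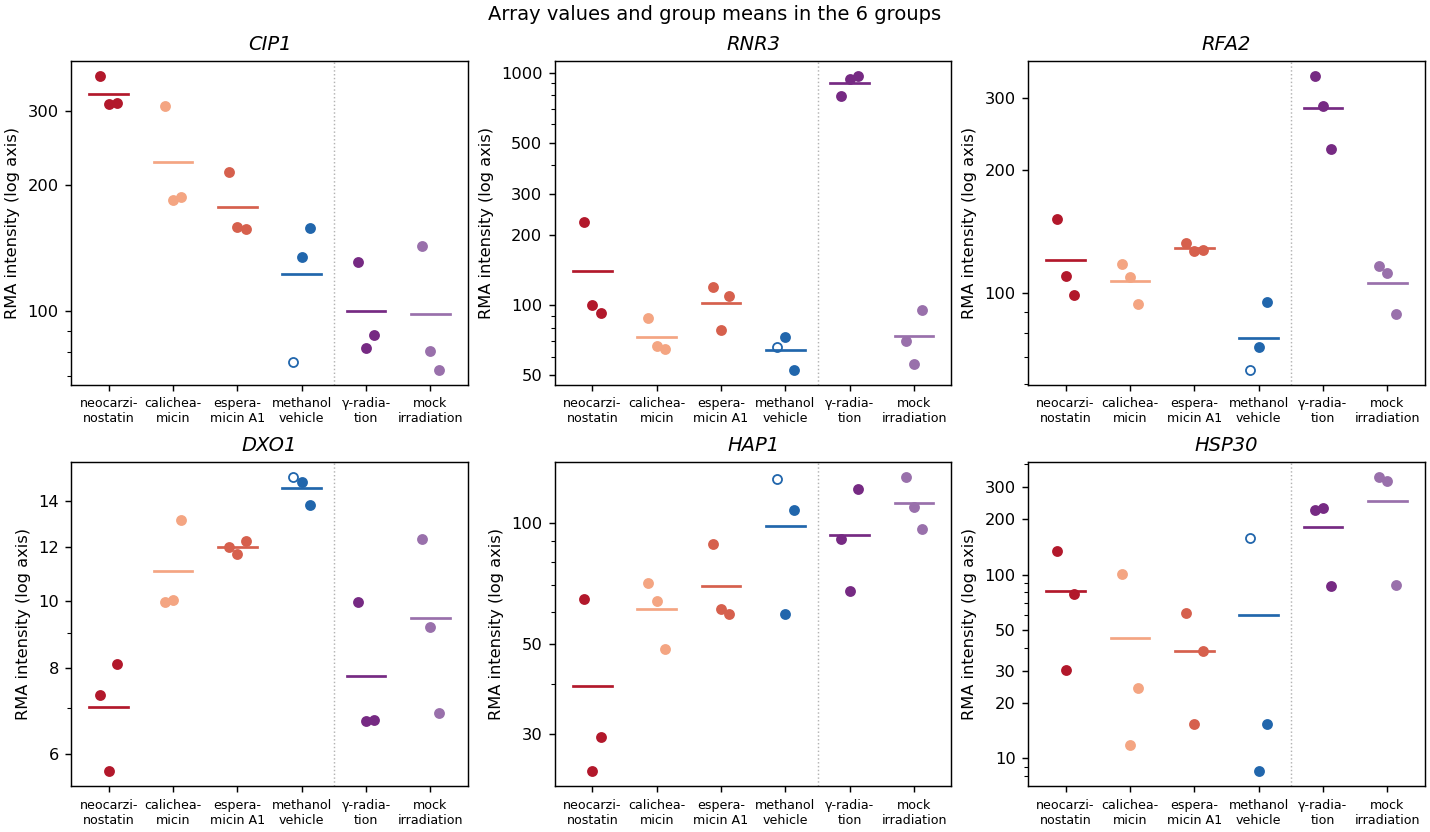
RMA intensity on a log axis of *CIP1*, *RNR3*, *RFA2*, *DXO1*, *HAP1* and *HSP30* in the 6 groups, 3 arrays each, with the line at the group mean and methanol vehicle replicate 1 drawn open. *CIP1* is at 311 to 364 with neocarzinostatin and at 75.9 to 158 with methanol vehicle, and *RNR3* at 92.9 to 227 with neocarzinostatin and at 794 to 970 after γ-radiation.

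The DNA damage signature of yeast, genes induced through Mec1 and Dun1 by methylation or irradiation, had 6 measured members, and their median log2 fold change was 0.07, against 0.04 for all genes tested. Without methanol vehicle replicate 1 it was 0.13, against 0.04 for all genes. *RNR2*, the small subunit of ribonucleotide reductase, was at 1030, 995 and 832 with neocarzinostatin and at 764, 822 and 863 with methanol vehicle (0.22). *RNR4*, the other small subunit, was at 551, 482 and 562 with neocarzinostatin and at 485, 541 and 547 with methanol vehicle (0.02). These ranges overlapped. The checkpoint kinase gene *DUN1* did not overlap, at 24.9, 23.4 and 23.8 with neocarzinostatin and 20.7, 22 and 23.3 with methanol vehicle, but by little (0.13, and 0.09 without methanol vehicle replicate 1). *RAD54* (0.29), *FMP52* (-0.28) and *ALG14* (0.01) overlapped, and without that array were at 0.64, -0.42 and 0.27, and *RNR4* at -0.04. After γ-radiation the median of the same 6 genes was 0.87.

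Over the 13 measured genes of ribonucleotide reductase and its Dun1-Rfx1 control the median was 0.22, with 12 above 0, but it was 0.01 without methanol vehicle replicate 1, with 7 above 0. Above 0 were 3218 of all 5656 genes, and 3201 without that array. Over 19 genes of homologous recombination and end joining the median was -0.04, with 9 above 0, and 0.11 without that array, with 13 above 0. It was 0.05 over 16 genes of base excision and strand break end repair (0.08 without that array) and 0.03 over 18 of the checkpoint (0.0028 without it). *RFA2*, a subunit of the single-strand binding protein RPA, stood out among 27 genes of the replication fork, whose median was 0.01 (0.06 without methanol vehicle replicate 1). It was at 152, 110 and 98.9 in the neocarzinostatin arrays and at 65.0, 73.8 and 95.1 in the methanol vehicle arrays, which left a narrow gap. The log2 fold change was 0.62 (standard error 0.19, adjusted p = 0.530 from limma) and 0.50 without methanol vehicle replicate 1. The mock irradiation arrays, at 117, 112 and 88.9, overlapped the treated ones. Of the same list *PSF1* (-0.80) and the MCM helicase gene *MCM3* (-0.58) were lower without overlap. *MCM3* had 24.85, 18.1 and 17.2 with neocarzinostatin and 30.6, 33.7 and 24.93 with methanol vehicle, so its groups all but touched.

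Genes of the G1 phase lay mostly above 0, as did 3218 of all 5656 genes. Of 16 cyclin-dependent kinase inhibitor, G1 cyclin and related genes 14 had a log2 fold change above 0, with a median of 0.29 (0.16 and 11 above 0 without methanol vehicle replicate 1). In 5 of them all neocarzinostatin arrays lay above the controls (31.2% of the list, against 7.39% of all genes): *CIP1*, *TOS4*, *WHI5*, *NRM1* and *CLB5*, the last pair named after their values were seen. *WHI5*, the repressor of the G1 to S transition, had 9.25, 8.76 and 8.13 with neocarzinostatin and 5.33, 7.34 and 7.23 with methanol vehicle, and *TOS4*, a chromatin-binding protein expressed at that transition, 9.85, 9.70 and 10.1 with neocarzinostatin and 4.37, 7.88 and 8.14 with methanol vehicle. Both are below the array medians, and both had their lowest value in methanol vehicle replicate 1. *WHI5* had a log2 fold change of 0.41, and 0.26 without that array, and *TOS4* one of 0.59, and 0.30 without it.

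Ribosome assembly genes lay mostly below 0. Of 122 genes for the processing of ribosomal RNA and the assembly of its subunits, 90 had a log2 fold change below 0 (73.8%, against 43.1% of all genes), with a median of -0.16. None of the 122 lay above the controls in every array (against 7.39% of all genes), and 15 lay below them (12.3%, against 4.07% of all genes). At an unadjusted p under 0.05 were 8 lower genes (6.56%, against 2.58% of all genes) and 1 higher, *NOP56* (against 5.62% of all genes). Without methanol vehicle replicate 1 111 genes were below 0 and the median was -0.33. Without neocarzinostatin replicate 1 instead, the median was 0.01, so the size of the difference depended on which array was left out. *NSA2*, a factor of large subunit maturation, was at 101, 103 and 125 in the neocarzinostatin arrays and at 145, 198 and 166 in the methanol vehicle arrays (-0.62), so the groups stood apart. *NUG1* had 82.9, 78.3 and 94.2 with neocarzinostatin and 146, 139 and 122 with methanol vehicle (-0.67). The mock irradiation arrays overlapped the treated ones for both genes, at 130, 109 and 73.1 for *NSA2* and at 113, 88.5 and 73.5 for *NUG1*. *RPF1*, another large subunit assembly factor, had 15.0, 21.4 and 30.2 with neocarzinostatin and 34.5, 30.3 and 29.1 with methanol vehicle, where replicate 3 of the treated cells reached the controls.

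Replicate number moved this list more than treatment did. Each gene was centred on its mean over the 6 arrays, and the median over the 122 genes was -0.41, 0.06 and 0.13 in neocarzinostatin replicates 1, 2 and 3, against -0.27, 0.32 and 0.18 in methanol vehicle replicates 1, 2 and 3. Replicate 1 was low in both groups, so a median that leaves it out of 1 group only is not balanced. Neocarzinostatin was lower than methanol vehicle within each number, with median differences of -0.21, -0.20 and -0.05, where all genes had 0.01, 0.07 and 0.05. In 41 of the 122 genes (33.6%) the treated array was the lower one in all 3 pairs, against 11% of all genes.

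Genes of the cytosolic ribosome itself also lay mostly below 0. Of 80 ribosomal protein genes 56 were below 0 (70%, against 43.1% of all genes), and the median was -0.09 (-0.06 without methanol vehicle replicate 1). Without overlap 10 lay below the controls (12.5%, against 4.07% of all genes) and 2 above (2.5%, against 7.39%). At an unadjusted p under 0.05 were 9 lower genes (11.2%, against 2.58% of all genes) and 2 higher (against 5.62% of all genes). The 3 with the smallest p encode large subunit proteins. *RPL24A* was at 1563, 1481 and 1450 with neocarzinostatin and at 2487, 2001 and 2106 with methanol vehicle (-0.55). *RPL28* was at 1343, 1249 and 1344 with neocarzinostatin and at 2335, 1753 and 1836 with methanol vehicle (-0.58). *RPL27B* was at 709, 780 and 816 with neocarzinostatin and at 968, 1343 and 1329 with methanol vehicle (-0.65, and -0.80 without methanol vehicle replicate 1). All 3 also lay below every mock irradiation array, and their treated arrays agreed within a narrow range. Many yeast ribosomal proteins are encoded by paired near-identical genes, whose transcripts an array may not separate. Over 56 mitochondrial ribosomal protein genes the median was 0.02, and -0.02 without methanol vehicle replicate 1.

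General stress genes, targets of the transcription factors Msn2 and Msn4 or the factors themselves, lay mostly above 0, as did 3218 of all 5656 genes. Of 32 genes 25 had a positive log2 fold change, with a median of 0.23, and 29 without methanol vehicle replicate 1, with a median of 0.31. Without neocarzinostatin replicate 1 the median was 0.13. Only *DDR2* lay above the controls without overlap (3.12% of the list, against 7.39% of all genes). Within the replicate numbers the median differences were 0.44, 0.39 and -0.05, so the third pair did not share it. *MSN2* was at 52.7, 71.7 and 74.1 in the neocarzinostatin arrays and at 21.2, 56.3 and 40.7 in the methanol vehicle arrays (0.84). *MSN4* was at 33.2, 55.1 and 60.3 with neocarzinostatin and at 16.4, 38.0 and 29.8 with methanol vehicle (0.86). Both overlapped only because neocarzinostatin replicate 1 lay below methanol vehicle replicate 2, and both had their lowest value in methanol vehicle replicate 1, without which the log2 fold changes were 0.45 for *MSN2* and 0.51 for *MSN4*. Heat shock chaperone genes had a median of 0.09 (23 genes), 0.24 without methanol vehicle replicate 1 and 0.03 without neocarzinostatin replicate 1. Genes of glutathione, thioredoxin and oxidant defense, of interest because thiols activate enediynes, had a median of 0.12 (31 genes, 21 above 0). Without methanol vehicle replicate 1 it was 0.09. Without overlap 3 of this list were higher (9.68%, against 7.39% of all genes) and 2 lower (6.45%, against 4.07% of all genes). *ECM38* was also higher, but with overlap, at 0.33, and at 0.43 without methanol vehicle replicate 1. Lower members were glutathione reductase, *GLR1*, with 80.7, 81.2 and 72.0 with neocarzinostatin and 126, 87.8 and 90.8 with methanol vehicle (-0.36, and -0.20 without methanol vehicle replicate 1), and the glutathione-degrading peptidase gene *DUG1*, at -0.42.

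Of 38 proteasome genes 25 were below 0 (65.8%, against 43.1% of all genes), with a median of -0.12 (-0.09 without methanol vehicle replicate 1). Without overlap 3 were higher (7.89%, near the 7.39% of all genes) and 4 lower (10.5%, against 4.07% of all genes). The core subunit gene *PRE9* had 93.1, 78.1 and 78.1 with neocarzinostatin and 177, 111 and 112 with methanol vehicle (-0.65, and -0.43 without methanol vehicle replicate 1). Another core subunit gene, *PRE8*, had 276, 267 and 233 with neocarzinostatin and 138, 198 and 210 with methanol vehicle (0.52, and 0.34 without that array), and the base ATPase gene *RPT1* was at 0.39. The treated *PRE8* arrays lay below every mock irradiation array (310, 335 and 292). Among 49 amino acid biosynthesis genes (median -0.07), 4 were lower without overlap (8.16%, against 4.07% of all genes) and 0 higher (against 7.39%). *ARO4*, which opens the aromatic pathway, had 410, 403 and 396 with neocarzinostatin, a tight set, and 486, 623 and 589 with methanol vehicle (-0.48). *HIS1* was at -0.42 and *TRP2* at -0.74 (-0.44 without methanol vehicle replicate 1). Of the methionine cycle, *MET6* had 709, 312 and 323 with neocarzinostatin and 474, 902 and 800 with methanol vehicle (-0.75), and *SAM2* had 295, 87.8 and 93.2 with neocarzinostatin and 215, 245 and 236 with methanol vehicle (-0.79). *SAM2* passed limma only without methanol vehicle replicate 1 and with the block on replicate number (-0.84, adjusted p = 0.0453). So did *BSC1*, chosen after its values were seen, at 21.2, 13.8 and 15.2 with neocarzinostatin and at 7.78, 43.0 and 32.2 with methanol vehicle (-0.43, and -1.18 without that array, adjusted p = 0.0453). For *MET6* and *SAM2*, replicate 1 of neocarzinostatin was higher than its control while replicates 2 and 3 gave differences of -1.53 to -1.31 on the log2 scale.

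**Figure D3:**
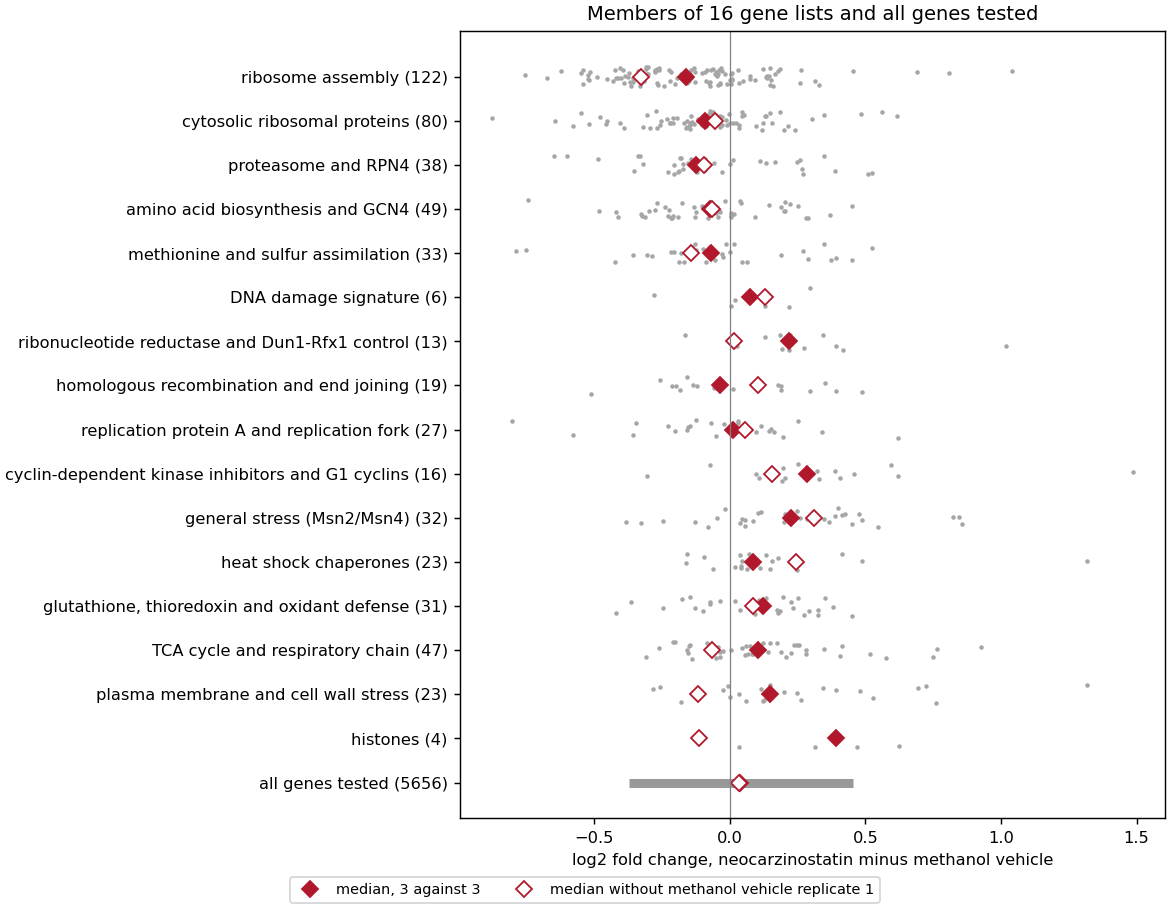
Log2 fold change, neocarzinostatin minus methanol vehicle, of the members of 16 gene lists, 1 grey point per gene, with the number of genes in brackets and the median with (filled) and without (open) methanol vehicle replicate 1. The bar for all genes tested spans the 5th to the 95th percentile. The ribosome assembly medians are -0.16 and -0.33, and those of 4 histone genes 0.39 and -0.11.

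The medians of 9 of the 36 gene lists changed sign without methanol vehicle replicate 1. The median of 47 genes of the TCA cycle and respiratory chain was 0.10, and -0.07 without it. That of 23 plasma membrane and cell wall stress genes was 0.15, and -0.12 without it, and that of 4 histone genes was 0.39, and -0.11 without it. *PMP2*, a regulator of the plasma membrane proton pump, had 1919, 2628 and 2853 with neocarzinostatin and 605, 2169 and 2257 with methanol vehicle, a log2 fold change of 0.76 that was 0.14 without that array. The cell wall protease gene *YPS1* had 360, 378 and 331 with neocarzinostatin and 109, 334 and 294 with methanol vehicle (0.69, and 0.18 without it). *SDH2* of succinate dehydrogenase had 169, 190 and 135 with neocarzinostatin and 39.4, 113 and 141 with methanol vehicle (0.93, and 0.36 without it). In each case methanol vehicle replicate 1 lay far below the other 5 arrays. Across all genes 1421 (25.1%) changed sign without it.

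**Figure D4:**
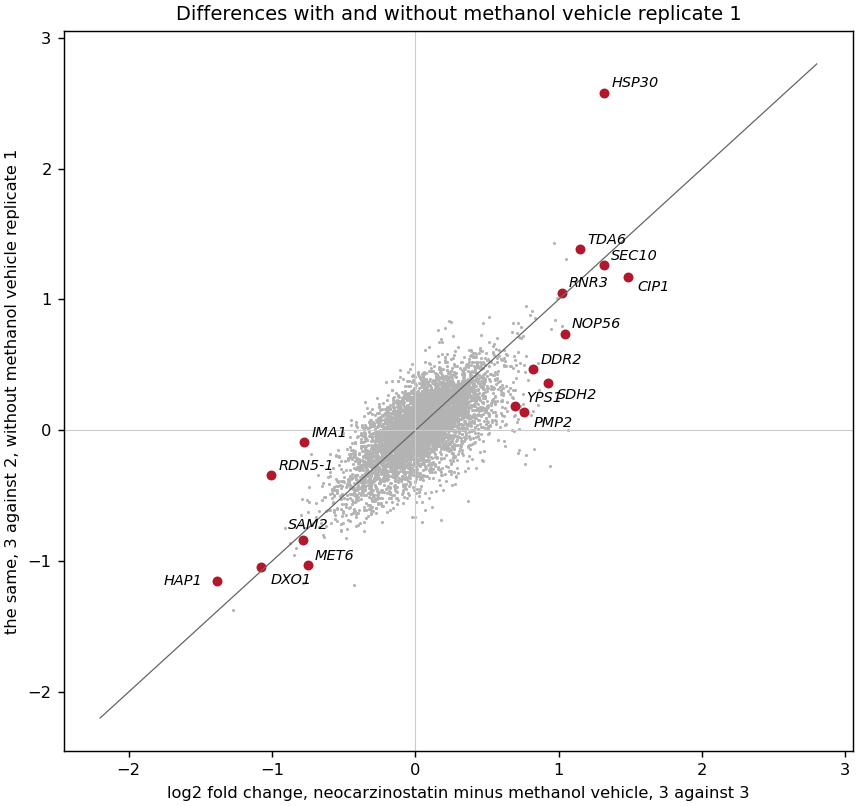
Log2 fold change, neocarzinostatin minus methanol vehicle, of 5656 genes with 3 control arrays (x axis) and without methanol vehicle replicate 1 (y axis), with the line of equality. *CIP1* (1.49 and 1.17) and *DXO1* (-1.08 and -1.05) lie near the line, *PMP2* (0.76 and 0.14) and *IMA1* (-0.78 and -0.09) far from it, and *HSP30* (1.32 and 2.58) above it.

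The differences also followed the numbers of the probe sets, which run roughly with chromosome order. The median log2 fold change was -0.07 for numbers 5000 to 5999 and 6000 to 6999, and 0.14 and 0.16 for 8000 to 8999 and 9000 to 9999. On the right arm of chromosome XIII 52 of 312 genes lay above the controls without overlap (16.7%) and 2 below (0.641%), and on the right arm of chromosome IV 15 of 492 lay above (3.05%) and 56 below (11.4%). Methanol vehicle replicate 1 contributed: with each gene centred on its mean over the 18 arrays, its medians lay between -0.24 and 0.27 over the bins from number 4000 up, and those of the neocarzinostatin arrays between -0.13 and 0.15. Without it the medians of the bins still ran between -0.07 and 0.10. The 12 largest negative differences without overlap had numbers from 4717 (*IMA1*) to 7117 (*DUT1*). Among them *DXO1*, *KEI1*, *TLG1*, *PSF1*, *GPI17*, *PRP28* and *RRP1* lie on the right arm of chromosome IV. The 12 largest positive differences had numbers from 7601 (*TDA6*) to 10803 (*STE6*), except *RNR3* (4045) and *YDR222W* (6233). After a running median in this order (window of 301 genes) was taken out of each array, 272 genes lay above the controls without overlap (4.81%) and 300 below (5.3%), and 189 were higher (3.34%) and 194 lower (3.43%) at an unadjusted p under 0.05. This step centres every array, which by itself evens the numbers of higher and lower genes, as median centring did. The median of the ribosome assembly genes was then -0.21, with 19 lower and 0 higher without overlap, the log2 fold change of *CIP1* 1.42 and that of *DXO1* -0.98. With the order removed, the same 12 genes with negative differences, not chosen anew, ran between -0.98 for *DXO1* and -0.58 for *NUG1*. The same 12 genes with positive differences ran between 0.62 for *COX5A* and 1.42 for *CIP1*. *RFA2* was then at 0.47, *TOS4* at 0.41 and *WHI5* at 0.27. The median of the G1 list was 0.20 and that of the heat shock chaperone genes -0.02. The cause of the trend over probe set number was not tested.

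**Figure D5:**
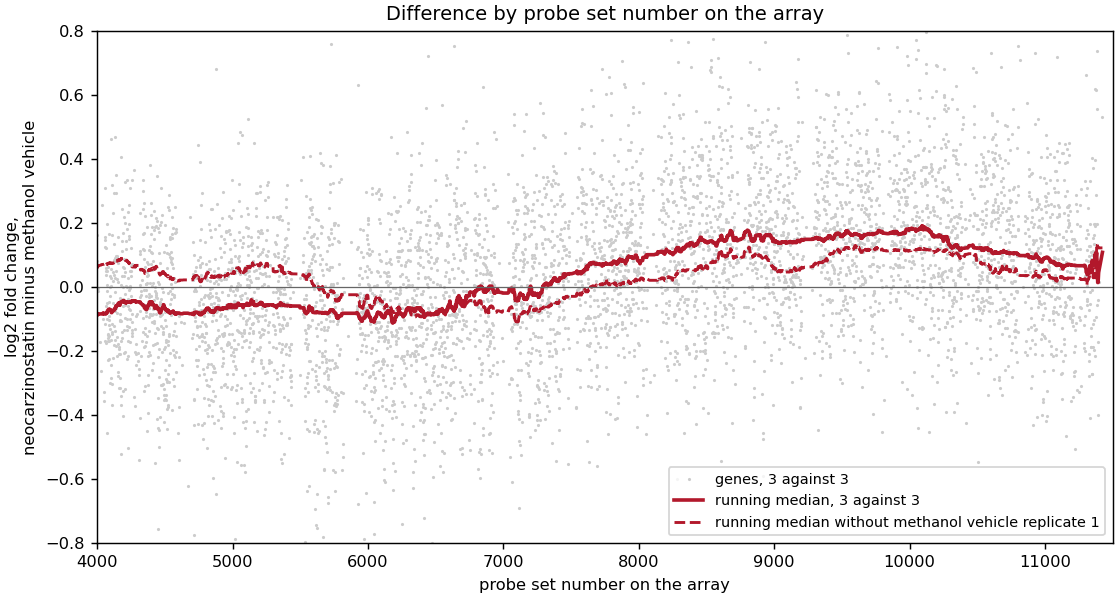
Log2 fold change, neocarzinostatin minus methanol vehicle, of each gene against the number of its probe set (from 4000, with the y axis limited), with the running median over 301 genes with all control arrays (solid) and without methanol vehicle replicate 1 (dashed). The medians of the bins 6000 to 6999 and 9000 to 9999 are -0.07 and 0.16 with all control arrays.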

How the data were processed

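Total RNA was primed from its poly(A) tails and hybridized to Affymetrix YG-S98 arrays, 1 per culture. The authors made the deposited intensities with RMA (background correction, quantile normalization and summary of each probe set; version not given in the sources used here) on a linear scale, and log2 was taken here. Detection calls are not used here. Of 9335 probe sets, 60 are controls, 6504 match 1 gene, 328 several and 2443 none; a gene with several is represented by the brightest, which leaves 5656 genes. The 6 groups were fitted in 1 model of 18 arrays with limma 3.58.1 in R 4.3.3 (12 residual degrees of freedom). The methods' local pooled error test was rebuilt from its published description, with 100 intensity bins. Both were tested on simulated data. The titles call the replicates biological, without saying whether a number marks a shared day, and their number limits the precision.

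Residuals of neocarzinostatin and methanol vehicle arrays of the same replicate number correlated at 0.37, 0.18 and 0.12. A block on replicate number was therefore fitted as an alternative, while the main fit and the overlap counts ignore this pairing. With the block within each control family 741 genes were at an unadjusted p under 0.05, against 464 in the main limma fit. The pairing comes from the values alone, and replicates 2 and 3 were not told apart (0.19 and 0.21 crosswise). Blocked values are given where they change a call. Named are the 12 largest positive and 12 largest negative differences without overlap of arrays, genes that the local pooled error test, the block or the fit without methanol vehicle replicate 1 called, the 3 members of each of 36 gene lists with the smallest p, and the DNA damage signature, of which 1 gene is not reported here. The text gives a selection. The members, lists and tests were chosen with earlier results of these data known. Alternatives were leaving out each array, other fits and controls, other scalings, filters and thresholds, and, added after seeing the data, removal of the trend over probe set number, alone or with other settings.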

Additional observations from a re-analysis of the deposited data

Results flagged for a closer look

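The effect of neocarzinostatin on *RNR3* differed from that of γ-radiation in a test of the difference over all genes (limma, log2 difference -2.62, adjusted p = 0.0139). The gene was at 227, 101 and 92.9 with neocarzinostatin, against 66.2, 73.2 and 52.7 with methanol vehicle, and at 794, 939 and 970 after γ-radiation, against 70.0, 56.2 and 95.9 after mock irradiation. The agents have their own controls and were not matched in dose other than by lethality. Over all genes, 6 passed this test of the difference.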

How the results depend on the processing

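Limma's count of called genes was 0 with all arrays and 0 to 1 with 1 array left out, the 1 being *SEC10* without methanol vehicle replicate 2 (464 genes at an unadjusted p under 0.05 with all arrays, 274 to 622 with 1 left out, the lowest without neocarzinostatin replicate 2). It was 0 in the 6 arrays alone, with a replicate block over all arrays or in the 6 alone, with an intensity trend, the actin covariate, cyclic loess, median centring, without dim genes, with all probe sets, at an adjusted p of 0.05 and without a fold threshold. It was 3 with the replicate block within each control family (741 at that unadjusted p), 6 with that block and no methanol vehicle replicate 1, 2 with that block and probe set order removed, 9 with array weights, 1 (*CIP1*) with methanol vehicle and mock irradiation arrays as 1 control group and 44 with the mean of those groups as the control. The local pooled error test called 8 (105 at that unadjusted p), 21 without methanol vehicle replicate 1 and 5 with order removed. Elsewhere 235 genes were at that unadjusted p in the 6 arrays alone and 817 with all probe sets. Without overlap were 648 genes, 1030 with all probe sets and 933 to 1480 with 1 array left out, where fewer arrays are compared. Scaling changed the split: at that unadjusted p 318 were higher and 146 lower, against 192 and 253 with median centring, 228 and 231 with cyclic loess and 189 and 194 with order removed. The causes were not tested.

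Of 1132 values of named genes under the alternatives, 21 changed sign, in 8 genes. With 1 array left out, *RNR4* ran between -0.037 and 0.087, *ALG14* between -0.15 and 0.27, *HUG1* between -0.12 and 0.38 and *RAD54* between -0.050 and 0.64 (the last negative without methanol vehicle replicate 3 alone). *RNR4* was -0.054 with array weights, -0.087 with the actin covariate and -0.038 with median centring, and *ALG14* -0.041 with cyclic loess, -0.05 with median centring and -0.0052 with order removed. With methanol vehicle and mock irradiation arrays as 1 control group the sign changed for *RNR4* (-0.45), *HUG1* (-0.42), *SIS1* (-0.18), *HSP30* (-0.16), *YKU70* (-0.044) and *MDH2* (-0.034). A mean intensity below 17, near or below the array medians, limits 4 of the 12 largest positive differences (*SEC10*, *TDA6*, *DCN1* and *STE6*). It also limits 5 of the 12 largest negative ones (*DXO1*, *PSF1*, *PRP28*, *IMA1* and *TLG1*).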
